A study of Mus musculus with 48 samples.

Results

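Of the 24 mice of the High line, 10 carried a large amount of reads on Gm13340, a nuclear copy of a mitochondrial gene, and these 10 were compared with the other 14. The mice were chosen by their own value: a mouse counted as having the signal where Gm13340 exceeded 1000 normalised counts. The lowest value above that threshold was 76224 (High male replicate 5) and the highest below it was 350 (High male replicate 1). The 10 mice were 6 females and 4 males, and the 14 were 6 females and 8 males. No difference between the sexes was found (Fisher's exact test, two-sided, p = 0.68), but 24 mice cannot show that the split was equal. All belonged to the heterogeneous stock-collaborative cross (HS-CC), an outbred mouse stock, after 4 generations of selection for high ethanol preference. The 24 mice of the Low line, 12 females and 12 males of the same stock and generation selected for low preference, served as a further reference, so that the series held 48 mice. Each mouse gave 1 RNA-seq library, made from poly(A) RNA of the accumbens shell, a part of the ventral striatum in the reward circuit that was cut out by laser microdissection. The sources used here do not give age, family or litter. Related mice may therefore share a group, and p-values measure only the spread between these mice. Each selected line was 1 population.

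The mitochondrial genome is a small circle inherited through the mother. It encodes protein subunits of the respiratory chain and of ATP synthase, 2 ribosomal RNAs, and the transfer RNAs that read its messages. It is transcribed as long precursors that are then cut, in most places at the transfer RNAs between the other genes. Pieces of this genome have also been copied into the chromosomes over evolution. Such nuclear copies are mostly inactive relics, but they resemble their source so closely that a sequencing read can align to either.

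The copies that carried the signal matched the reference mitochondrial transcripts at 89% (Gm12155) to 97.6% (Gm13340) of aligned positions. The stretches below are shown because they are where a read could be told apart: for each pair, the 100 bases with the most substitutions, taken from GENCODE M21 (GRCm38), 5′ to 3′. Capitals mark the bases that differ within a pair. They are reference sequences, and the alleles of the HS-CC mice were not analysed here. The first pair covers bases 435 to 534 of mt-Co1 and holds 5 substitutions, the second bases 759 to 858 of mt-Nd2 with 6, and the third bases 244 to 343 of mt-Nd6 with 15.
mt-Co1: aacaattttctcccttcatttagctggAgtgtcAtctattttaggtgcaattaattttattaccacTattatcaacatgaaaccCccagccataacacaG
Gm13340: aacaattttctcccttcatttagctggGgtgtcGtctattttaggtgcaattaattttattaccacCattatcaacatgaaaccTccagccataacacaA
mt-Nd2: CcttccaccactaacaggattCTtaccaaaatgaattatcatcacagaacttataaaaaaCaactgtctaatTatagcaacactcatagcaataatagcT
Gm13339: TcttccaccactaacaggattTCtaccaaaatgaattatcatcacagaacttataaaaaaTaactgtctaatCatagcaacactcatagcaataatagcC
mt-Nd6: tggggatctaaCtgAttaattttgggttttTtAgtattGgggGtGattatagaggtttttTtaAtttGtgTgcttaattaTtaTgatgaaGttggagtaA
Gm11408: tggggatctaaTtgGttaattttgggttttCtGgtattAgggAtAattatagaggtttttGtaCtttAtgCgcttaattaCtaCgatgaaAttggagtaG

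Over its whole length Gm13340 matched mt-Co1, the first subunit of cytochrome c oxidase, at 1508 of 1545 bases (97.6%), and 33 of its 37 substitutions were transitions. Gm13339 matched the last 510 bases of mt-Nd2, a complex I subunit, at 493 of them (96.7%). Gm13341 matched mt-Co2, the second cytochrome c oxidase subunit, at 656 of 684 aligned positions (95.9%). These 3 copies lie side by side on the minus strand of chromosome 2, at 22442811 (Gm13341), 22443623 (Gm13340) and 22445544 (Gm13339) on mm9, in the order of their sources when read along that strand. A second group of copies lies on chromosome 4, where Gm11407 at 79648235 matched mt-Nd5 at 92.4%, Gm11408 at 79649300 matched mt-Nd6 at 93.6% and Gm11410 at 79649893 matched mt-Cytb at 92.9%. Other copies, on chromosome 1, were identical to their source over the aligned length. They were Gm28661 (681 bases of mt-Co2), Gm10925 (678 of mt-Atp6), Gm28437 (783 of mt-Co3), Gm28438 (342 of mt-Nd3) and Gm10222 (294 of mt-Nd4l). Of these, only Gm10222 was among the measured genes.

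In the 10 mice that the threshold selected, Gm13340 measured 97677, 102578, 113187, 118994, 94755 and 93951 normalised counts in High female replicates 2, 3, 5, 8, 11 and 12, and 106260, 76224, 108224 and 103122 in High male replicates 2, 5, 6 and 11. In the other 14 High mice it ran from 111 to 350 with a median of 146, and in the Low mice from 102 to 901 with a median of 150. The neighbouring copies moved with it. Gm13341 lay between 21542 and 31365 in the 10 mice and between 48 and 97 in the 14, and Gm13339 between 16035 and 26281 against 13 to 82. On chromosome 4, Gm11407 lay between 808 and 1826 against 0 to 15, Gm11408 between 692 and 1436 against 0 to 8, and Gm11410 between 53 and 96 against 0 to 4. Gm12155, a short mt-Co2 copy on chromosome 11, lay between 23 and 38 against 0 to 4. None of these 7 copies had values that overlapped between the 10 and the 14 mice, and no intermediate value was seen. Gm11407, Gm11408, Gm11410 and Gm12155 passed the filter on low values only through the 10 mice, so their count supports nothing. Gm10222 was the exception among copies that passed the filter on low values, with 10 to 22 in the 10 mice and 12 to 38 in the 14. These are descriptions without a test, since Gm13340 chose the mice and the other copies can exchange reads with the same transcripts.

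**Figure D1:**
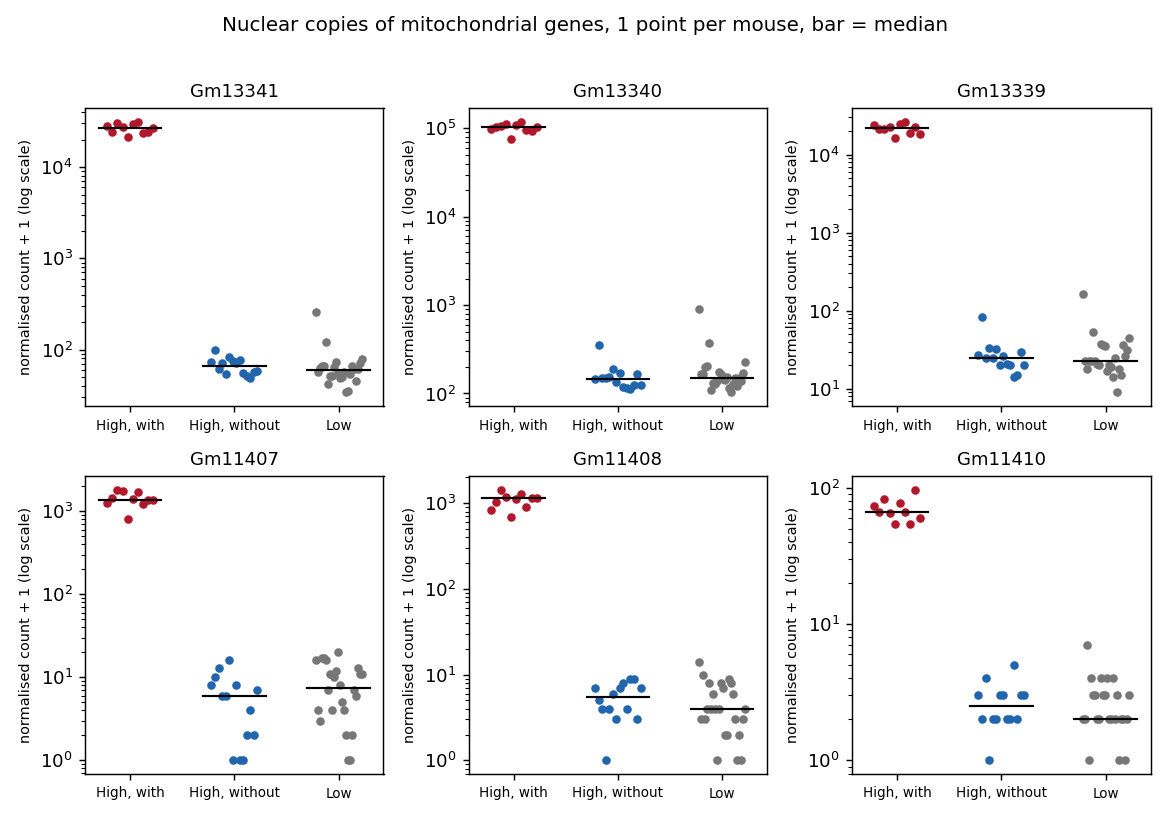
Normalised counts plus 1 on a log axis for 6 nuclear copies of mitochondrial genes, 1 point per mouse, in the 10 High mice with the signal, the 14 without it and the 24 Low mice; bars are medians. The 10 mice stand apart for every copy, with Gm13340 between 76224 and 118994 in them and at most 901 elsewhere.

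The share of a copy within the sum of copy and source varied little among the 10 mice for 5 of the 6 pairs. Gm13340 held 57.9% to 60.6% of its sum with mt-Co1, Gm13339 held 47.3% to 51.4% of its sum with mt-Nd2, Gm11407 held 5.29% to 5.88% with mt-Nd5 and Gm11408 held 6.73% to 7.58% with mt-Nd6. Gm13341 held 99.6% to 99.7% of its sum with mt-Co2, which itself was listed at no more than 109 in these mice. Gm11410 varied more, at 0.0432% to 0.0769% of its sum with mt-Cytb. In the other 14 High mice the shares were at most 0.243% for Gm13340, 0.202% for Gm13339, 0.0477% for Gm11407 and 0.0471% for Gm11408. For Gm13341 they ran from 23.5% to 42%. Which reads were assigned where was not tested, since the reads were not used here.

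The source of the main copy was lower in the same mice. mt-Co1 measured 68440, 74443, 79674, 77999, 67066 and 61016 in the 6 females with the signal, in the order given above, and 74950, 54021, 76875 and 69160 in the 4 males. In the 14 other High mice mt-Co1 ran from 115491 to 175278 with a median of 146730, so the groups did not overlap. Summed with Gm13340, the range was 130245 to 196993 in the 10 mice (mean 171862 ± 19757, SD) and 115660 to 175423 in the 14 (151344 ± 15727), and these ranges did overlap. For mt-Nd2 the values were 17151 to 26588 against 40569 to 60468, and its sum with Gm13339 was 33268 to 52438 against 40651 to 60492.

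**Figure D2:**
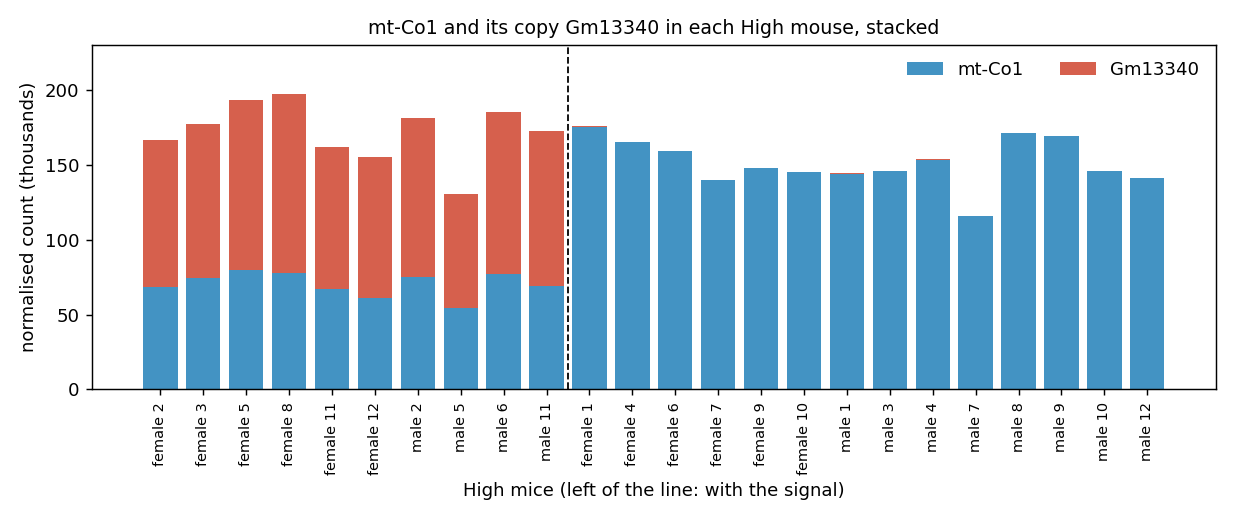
Normalised counts, in units of 1000, of mt-Co1 (blue) and Gm13340 (red), stacked, in each of the 24 High mice, with the 10 mice that have the signal left of the dashed line. mt-Co1 is at most 79674 on the left and at least 115491 on the right, while the stacked heights overlap.

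All 37 mitochondrial genes together summed to 517798 ± 83376 (SD, n = 10) in mice with the signal and to 681780 ± 97490 (n = 14) in those without it, which was 3.68% and 4.84% of the library on average. With 8 nuclear copies added the sums were 670104 ± 100689 and 682065 ± 97444. The Low mice had 651828 ± 119331 without and 652157 ± 119295 with the copies (n = 24). In the sum with copies, the difference between the 2 High groups was smaller than the spread within either.

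Of the 37 mitochondrial genes, 33 passed the filter (1 ppm of the mean column total, which is 14.1 deposited units, in at least 10 High mice), and 9 of them did not overlap between the 2 High groups, 6 lower and 3 higher in the 10 mice. By the same measure 0 of 14886 nuclear genes (0%) did not overlap. The same count against the 24 Low mice was 9 for the 10 mice with the signal and 0 for the 14 without it. The log2 differences below are differences of mean log2(value + 0.5 ppm) and carry no test. mt-Co1 can exchange reads with the gene that chose the mice, and the other transcripts come from the same genome as mt-Co1. mt-Tg and mt-Nd4l reached the filter only through the 10 mice in which they were high (0 and 6 of the 14 others reached it), so 2 of the 3 higher genes were let in by their difference and the count supports nothing. Directions were alike in females and males for all 9.

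Among the protein-coding transcripts of complex I, mt-Nd2 was lower by a log2 difference of -1.23, and mt-Nd5 (-0.46), mt-Nd6 (-0.33), mt-Nd1 (-0.20) and mt-Nd4 (-0.14) were lower with overlapping groups. The 2 remaining subunits went the other way. mt-Nd3 measured 99 to 305 in the 10 mice (median 192) and 9 to 32 in the 14 (median 20.5), a log2 difference of 2.97. mt-Nd4l, whose gene overlaps the start of mt-Nd4, measured 43 to 111 against 7 to 18, a difference of 2.10. Both are weakly listed beside mt-Nd4: per kilobase of transcript, medians in the 14 mice were 58.9 for mt-Nd3 and 47.1 for mt-Nd4l against 52829 for mt-Nd4. Both also shared nearly all of their 25-base words with a nuclear gene, 98.1% for mt-Nd3 and 98.9% for mt-Nd4l, against 62.9% for mt-Nd4.

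mt-Cytb, the mitochondrial subunit of complex III, differed by -0.11, with 87623 to 150571 in the 10 mice and 100620 to 162491 in the 14. Of the cytochrome c oxidase subunits of complex IV, mt-Co1 differed by -1.11, mt-Co2 by -0.50 and mt-Co3 by -0.35, and only mt-Co1 was free of overlap. Of the ATP synthase subunits, mt-Atp6 measured 54 to 88 against 109 to 195 (-1.05), and mt-Atp8 22 to 39 against 18 to 39 (0.01). The transcripts mt-Co2, mt-Co3 and mt-Atp6, with 99.5% to 100% of their words in nuclear genes, were listed at no more than 243 in any of the 48 mice. The ribosomal RNAs showed overlapping groups, with 27152 to 77422 against 21843 to 75260 for mt-Rnr1 and 41060 to 111489 against 42217 to 134765 for mt-Rnr2.

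The widest differences were in 2 transfer RNAs, mt-Ty (-4.40) and mt-Tg (4.42), and mt-Tc and mt-Tw were also free of overlap. A poly(A) library is not designed to capture mature transfer RNAs, and which molecules gave these reads was not tested. Their reference sequences are printed because 3 of the 4 shared no 25-base word with any nuclear transcript; mt-Ty shared 23.3%, all with Cep295.
mt-Tw: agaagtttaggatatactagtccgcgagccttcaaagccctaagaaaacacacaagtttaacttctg
mt-Tc: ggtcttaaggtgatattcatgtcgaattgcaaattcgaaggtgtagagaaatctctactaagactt
mt-Ty: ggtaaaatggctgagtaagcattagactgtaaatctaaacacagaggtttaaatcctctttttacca
mt-Tg: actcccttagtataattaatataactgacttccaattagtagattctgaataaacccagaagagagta

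mt-Ty, the tyrosine transfer RNA, measured 2, 2, 0, 1, 2 and 6 in the 6 females with the signal and 12, 4, 6 and 5 in the 4 males. In the 14 other High mice it ran from 141 to 325 with a median of 216, and in the Low mice from 140 to 386. Every mouse with the signal was thus far below every other mouse of the series. mt-Tc (cysteine) measured 72 to 161 against 251 to 712 and mt-Tw (tryptophan) 82 to 160 against 175 to 410, log2 differences of -2.10 and -1.16. mt-Tg, the glycine transfer RNA, was opposite, at 212, 152, 138, 273, 176 and 183 in the 6 females and 288, 89, 184 and 164 in the 4 males. It was at most 5 in the 14 High mice and at most 2 in the Low mice. Of the other transfer RNAs that passed, mt-Th (histidine) was the one with the next largest difference upward, at 42 to 124 against 22 to 76, and its groups overlapped.

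**Figure D3:**
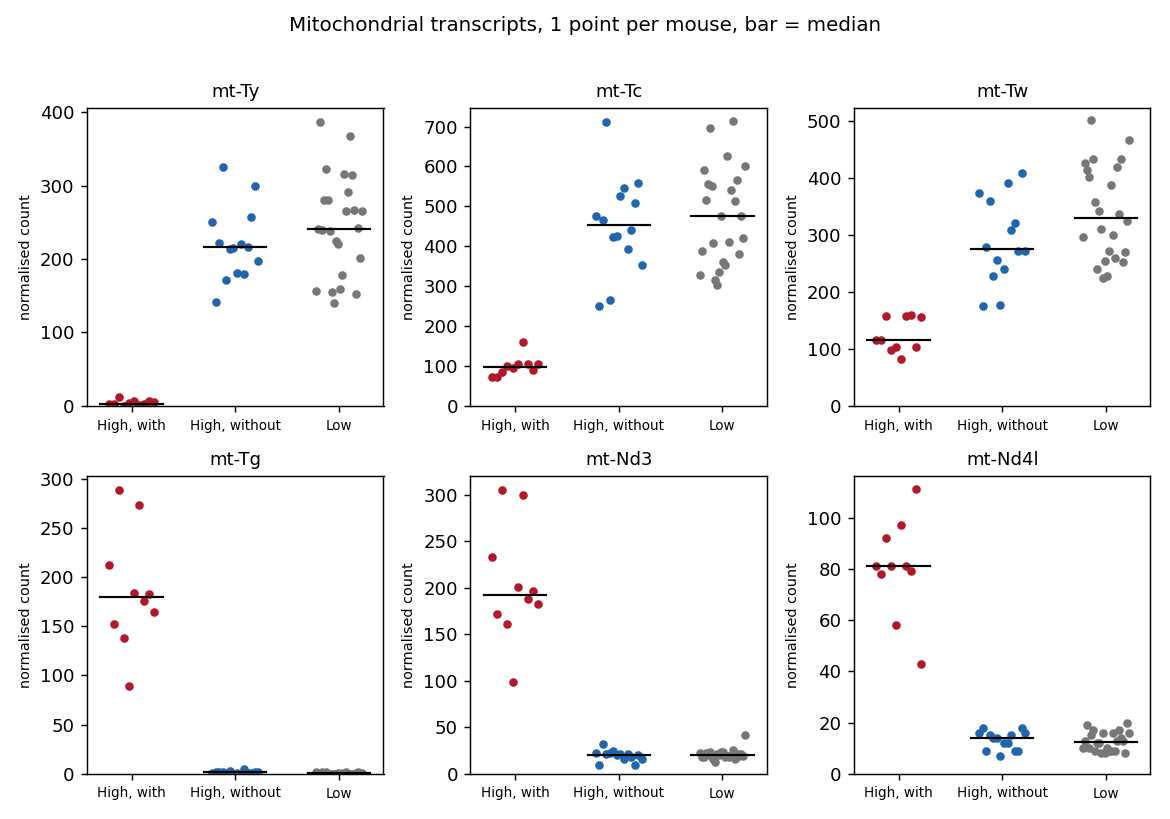
Normalised counts of 6 mitochondrial transcripts, 1 point per mouse, in the 3 sets of mice; bars are medians. The upper row is lower and the lower row higher in the 10 mice with the signal, and the 14 other High mice cover the same range as the Low mice.

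By position on the mitochondrial genome, 5 of the 6 lower genes lay between mt-Nd2 at 3914 and mt-Co1 at 5328, with mt-Tw at 4950, mt-Tc at 5192 and mt-Ty at 5260. mt-Ta at 5018 and mt-Tn at 5089, in the middle of that stretch, had overlapping groups (0.11 and -0.50). The 3 higher genes lay at 9391 (mt-Tg), 9459 (mt-Nd3) and 9877 (mt-Nd4l), downstream of mt-Co3 at 8607. mt-Atp6 at 7927 was the remaining lower gene.

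**Figure D4:**
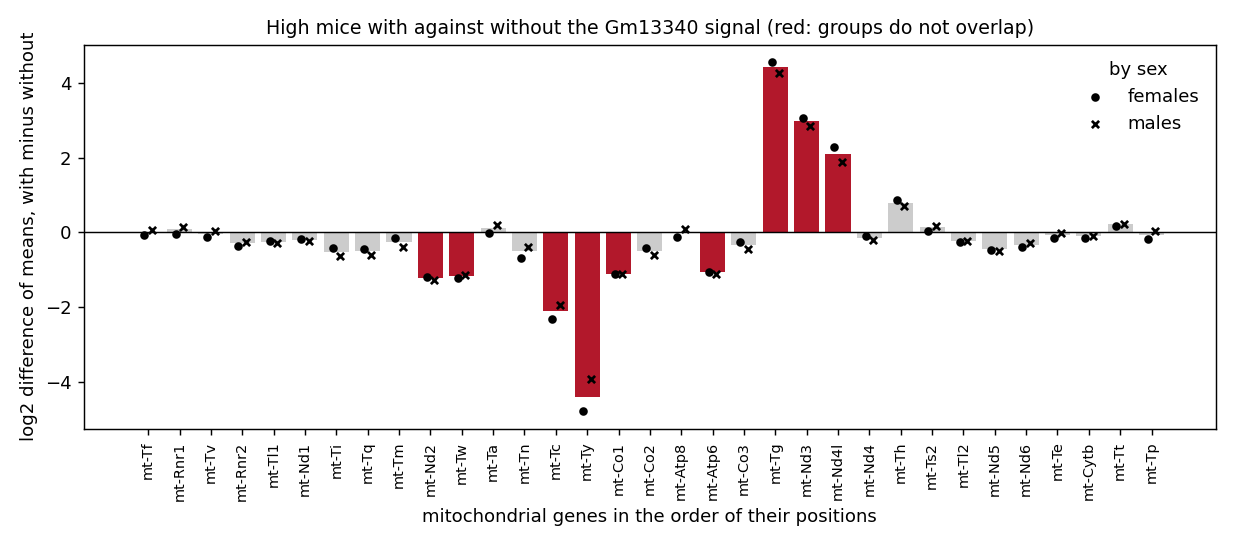
Log2 difference of means, with minus without the signal, for the 33 mitochondrial genes that passed the filter, in genome order; dots are females, crosses are males and red bars are genes whose 2 groups of High mice do not overlap. Red bars below 0 are mt-Nd2, mt-Tw, mt-Tc, mt-Ty, mt-Co1 and mt-Atp6, and those above 0 are mt-Tg, mt-Nd3 and mt-Nd4l.

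Nuclear transcripts, which the rule did not use, were tested gene by gene with sex as a covariate. Few of them differed. With p-values adjusted by Benjamini-Hochberg over the 14886 nuclear genes alone, 2 (0.0134%) passed 0.05 by limma, Tmed2 and Gm16477, both lower in the 10 mice. With the adjustment over all 14924 genes in the fit, 4 (0.0269%) passed, all lower. The additional 2 passed because mitochondrial genes and copies bound to the grouping entered that adjustment at the top: Tmed2, first among nuclear genes, was 13th of all. An unadjusted p under 0.05 was seen for 803 nuclear genes (5.39%), 294 higher and 509 lower. Leaving out 1 mouse at a time gave 0 to 3 calls over nuclear genes alone, with 0 by limma without High female replicate 1, High male replicate 2 or High male replicate 11 (636, 768 and 717 at an unadjusted p under 0.05). Over all genes it gave 2 to 7, with 2 without High male replicate 2 or 11 and 7 without High female replicate 8. Females alone gave 0 calls by limma in both ways (403 at an unadjusted p under 0.05), and males alone 0 over nuclear genes alone (608 at an unadjusted p under 0.05) and 2 over all. Adjusted p-values of single genes below are over all 14924 unless stated. Of the tested nuclear genes, 551 were not matched to GENCODE M21, so that their words could not be compared with mitochondrial transcripts.

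Tmed2, a cargo receptor of the early secretory pathway on chromosome 5, measured 255, 174, 143, 69, 185 and 136 in the 6 females with the signal and 87, 116, 176 and 121 in the 4 males. It ran from 216 to 360 with a median of 264 in the 14 others, so that only High female replicate 2 reached their range. The log2 difference was -0.92 ± 0.147 (SE, limma adjusted p = 0.00157, and 0.0203 over nuclear genes alone), or 1.89-fold lower. The Low mice spread over both ranges, from 88 to 306. The exon starting at 124999090 on mm9 held 99.1% of the Tmed2 values, and its other 5 exons summed to at most 6 in any mouse. Words of 25 bases shared with other genes covered 27% of Tmed2, 22.8% with Gm10698 alone, so its value is uncertain.

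Gm16477, a processed pseudogene on chromosome 7, measured 69, 4, 0, 53, 50 and 56 in the 6 females and 2, 42, 0 and 1 in the 4 males, against 42 to 174 in the 14 (-2.21 ± 0.386, limma adjusted p = 0.00535, and 0.0373 over nuclear genes alone). All of its words occurred in other genes, so its value is uncertain too. Of the 177 genes that shared words, those with the most were Rpl7a-ps11 (90.3%), Gm8226 (90%) and Rpl7a, a ribosomal protein gene (84%). Rpl7a lies on chromosome 2 at 26766284 and measured 3033 to 5535 in the 10 mice and 2329 to 4133 in the 14 (0.40, limma adjusted p = 0.39). ENSMUSG00000062358, which the tables used here do not pair with a symbol, had a log2 difference of -1.46 ± 0.285 (limma adjusted p = 0.0244), which did not pass over nuclear genes alone (0.0972). It was at 4 or below in 5 of the 10 mice, the same 5 in which Gm16477 was, and in 0 of the 14; in the Low line 7 mice had both at that level. ENSMUSG00000090378, also without a symbol, measured 127 to 196 against 174 to 256 (-0.40 ± 0.0783, limma adjusted p = 0.0224), and it too did not pass over nuclear genes alone (0.0972). Its first exon starts at 24620814 on mm9, but no source used here gives its chromosome. Gm10222, the copy of mt-Nd4l on chromosome 1, starts at 24619243. Gm16477 and ENSMUSG00000062358 had means under 5 ppm and are named after their values were seen. Over all genes, ENSMUSG00000090378 lost its call when any 1 of High female replicates 2, 9 and 11 or High male replicates 2, 5 and 11 was left out (limma adjusted p from 0.0521 to 0.0914). ENSMUSG00000062358 lost it without any 1 of High female replicates 3, 5, 7 and 9 or High male replicates 2, 6 and 11 (from 0.0533 to 0.0959).

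**Figure D5:**
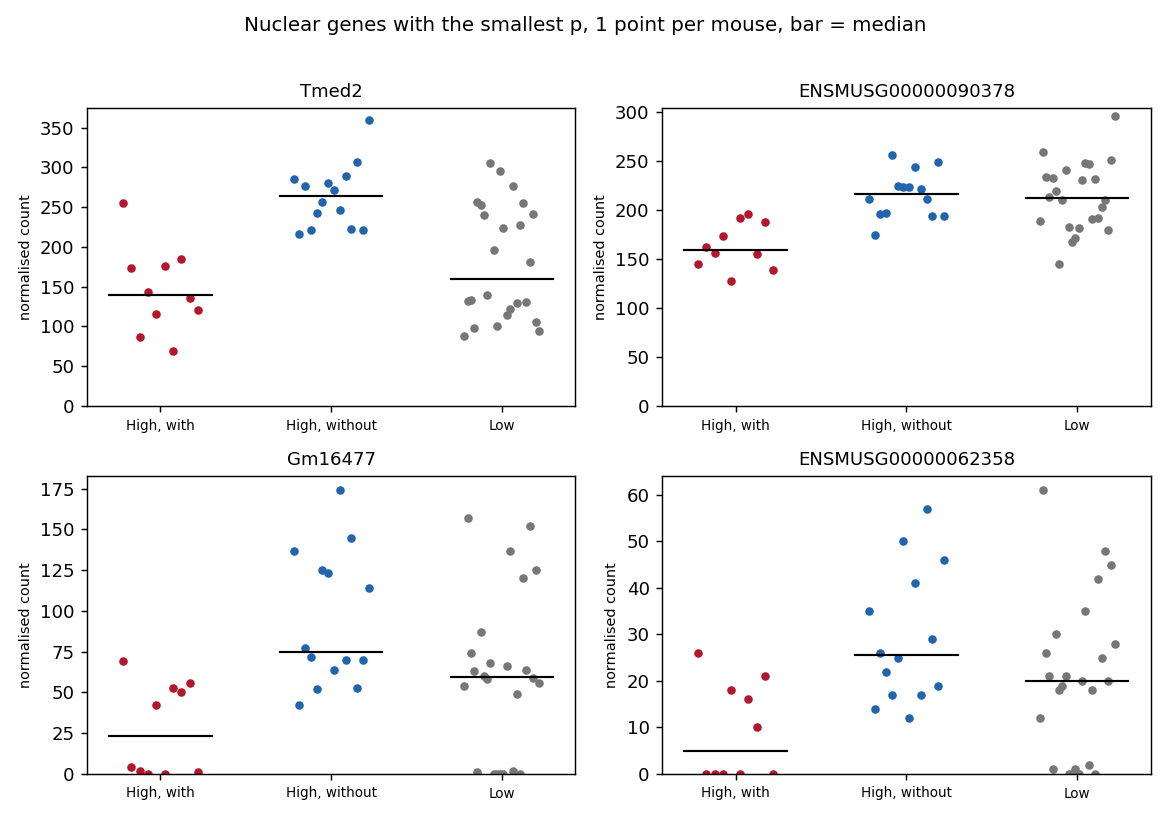
Normalised counts of the 4 nuclear genes that passed the test with p adjusted over all 14924 genes, of which Tmed2 and Gm16477 also passed over nuclear genes alone, 1 point per mouse, with bars at the medians. The 2 High groups overlap for all 4, and Gm16477 and ENSMUSG00000062358 are at or near 0 in 5 of the 10 mice with the signal and in 7 Low mice.

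The genes next in order did not pass. On the lower side they included Rbm11, an RNA-binding protein (70.1 ± 12.4 against 99.4 ± 16.5, SD), and Cep290 of the primary cilium (308 ± 30.7 against 398 ± 58.9), each with a limma adjusted p of 0.0837, then Aard and Surf6 (0.125 and 0.129). On the higher side they were Itih3, a hyaluronan-binding plasma protein (1030 ± 170 against 767 ± 114, adjusted p = 0.0837 by limma), Nat8f2, the myosin heavy chain gene Myh6, Rexo4 and Mon1a, with adjusted p values of 0.159 to 0.36. With library weights 17 nuclear genes were called (10 over nuclear genes alone). In that fit 2359 nuclear genes had an unadjusted p under 0.05, against 803 without weights. The 17 included Rbm11, Cep290, Aard and Nat8f2. In the Low mice, Rbm11 averaged 91.4 ± 23.3 (SD), Cep290 317 ± 39.5 and Itih3 992 ± 181.

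Nuclear genes around the copies were listed after their values were seen. Within 5 Mb of Gm13340 on chromosome 2, 0 of 115 tested genes were called by limma and 13 (11.3%) had an unadjusted p under 0.05, against 5.39% of all nuclear genes. Within 20 Mb it was 25 of 328 (7.62%). The 13 within 5 Mb included Surf6 (-0.30), Rexo4 (0.27), Rpl7a (0.40) and the chromatin reader Brd3 (0.21), all between 26744148 and 27301099 on mm9. Within 5 Mb of Tmed2 on chromosome 5, 14 of 108 (13%) had such a p, among them Ccdc62 (-0.56) and the dynein gene Dnah10 (0.83). The 14 include Tmed2 itself, the 1 called gene there. That window was placed on the nuclear gene with the smallest p, so its share supports nothing. Genes close together on a chromosome are not independent in an outbred stock. Within 5 Mb of Gm11407 on chromosome 4, 3 of 13 had it, all lower.

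Nuclear genes of the respiratory chain, whose products assemble with the mitochondrially encoded subunits, had 0 members called by limma. Of the nuclear complex I subunits, 32 of 36 lay below 0 with a median log2 difference of -0.08 (-0.08 in females and -0.07 in males), where 51.6% of all nuclear genes lay below 0 with a median of 0.00. The smallest p was that of Ndufb4 (272 ± 35.2 against 322 ± 56.4, -0.23, unadjusted p = 0.0356), 1 of 36 under 0.05. Of complexes II to V, 31 of 40 lay below 0 (median -0.07), none with an unadjusted p under 0.05. Respiratory chain assembly factors had 6 of 42 members with such a p lower and 1 higher, including Cox16 (-0.19) and Uqcc1 (0.15). Together these were 16.7% of the list, against 5.39% of all nuclear genes, and its median was -0.04.

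Genes that keep, copy and read the mitochondrial genome had 5 of 27 members (18.5%) at an unadjusted p under 0.05, all lower, with a median of -0.08. Over all nuclear genes that share was 5.39%. The 5 included Tfb2m, a mitochondrial transcription factor (-0.27, unadjusted p = 0.0103), and Ssbp1, the single-stranded DNA-binding protein (-0.22, unadjusted p = 0.0127). Mitochondrial RNA processing genes had 1 of 40, the pseudouridine synthase relative Trub2 (-0.31). Mitochondrial aminoacyl-tRNA synthetases had 3 of 22 (13.6%), all lower, among them Nars2 (-0.16). Mitochondrial ribosomal proteins had 5 of 87, all lower, with 66 of 87 below 0, and examples were Mrpl22 (-0.29) and Mrps17 (-0.31). None was called by limma, and the shares for RNA processing (2.5%) and ribosomal proteins (5.75%) were under or near that of all nuclear genes. Members of 1 list share mice and vary together, so these counts are not independent observations.

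Lists on the wider response of the cell had 0 calls by limma as well. Medians were 0.00 for mitochondrial dynamics and turnover (29 genes), -0.02 for chaperones and proteases (21), 0.01 for the integrated stress response (28), -0.03 for antioxidant defence (31), -0.02 for the citric acid cycle (26) and 0.02 for glycolysis (24). In the same order, 1, 2, 1, 4, 1 and 2 of them had an unadjusted p under 0.05. The largest share was 12.9% for antioxidant defence (2 higher and 2 lower), against 5.39% of all nuclear genes. Nucleic acid sensing and interferon genes (19, median -0.03) and histocompatibility genes (12, median -0.04) had 0 such members. Alcohol and acetaldehyde metabolism had 1 of 12, Aldh3a2 (-0.20). Of the signalling lists, opioid, cannabinoid and neuropeptide genes had 3 of 23 (13%, against 5.39% of all nuclear genes), 2 lower and 1 higher. Their median was 0.01, with 13 above 0 and 10 below. The 2 with the smallest p were the neuropeptide Npy (-0.29) and the kappa opioid receptor Oprk1 (-0.23). Dopamine signalling had 0 of 18, and glutamate and GABA receptors 3 of 38. Immediate early genes, induced by neuronal activity, had 0 of 19 with a median of 0.12 (0.12 in females, 0.01 in males).

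The makeup of the dissected tissue was read from marker lists. Summed markers of the spiny projection neurons that define the region ran from 78218 to 115478 in the 10 mice and from 79822 to 108673 in the 14. The D1 list had a median log2 difference of 0.00, the D2 list of 0.03, the shared spiny list of 0.06 and interneurons of 0.01. Medians were -0.03 for astrocytes, 0.12 for oligodendrocytes, 0.08 for their precursors, 0.00 for microglia, 0.15 for endothelial and mural cells, 0.05 for ependymal cells, -0.02 for leptomeninges, -0.03 for septal and diencephalic neurons, -0.17 for cortical pyramidal neurons and 0.10 for blood. Some of these medians rest on few markers. Only 3 of 8 listed were tested for cortical neurons, 4 of 8 for ependymal cells and 5 of 8 for septal and diencephalic neurons. In no list was a member called by limma, and 6 of these 14 lists had 1 member at an unadjusted p under 0.05 and the others had 0. Slc17a7, of cortical pyramidal neurons, exceeded 1000 in 2 High mice, both without the signal (up to 1626), and was at most 43 in the 10. Leaving those 2 out gave 5 calls (1 over nuclear genes alone), and a median of 0.12 for the cortical list. In whole tissue, fewer cells of a type and less RNA per cell cannot be told apart.

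Exon usage, the balance of exons within a gene, differed for 20 of 13963 nuclear genes (0.143%) by limma's diffSplice at a Simes adjusted p under 0.05. For Rpl21, a ribosomal protein gene, the exon starting at 147647440 on chromosome 5 measured 403 ± 428 (27 to 1261) against 61.4 ± 128 (17 to 507), while its other exons were at 5069 ± 1082 against 4974 ± 735 (adjusted p = 1.28e-06 by limma's diffSplice). For Surf6, of ribosome biogenesis, the exon starting at 26744148 on chromosome 2 measured 21.4 ± 9.69 (4 to 39) against 7.57 ± 7 (0 to 19). The rest measured 181 ± 28.5 against 243 ± 30.5, and the adjusted p of the gene was 2.64e-06 by limma's diffSplice. For Trappc12, of vesicle tethering, the exon at 29394373 on chromosome 12 was at 10.4 ± 10.7 (0 to 29) against 23 ± 7.64 (13 to 42). Its adjusted p was 2.21e-07 by limma's diffSplice. Both of these exons were weak, with overlapping groups. The exons behind the calls of Parp6, Npm1 and Phax averaged under 10 normalised counts in both groups. A higher exon filter left 9 calls and a larger pseudocount 6. Rpl21 shared words with 122 other genes.

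The difference between mice with and without the signal was also compared between females and males. No nuclear gene of 14886 (0%) had a difference that depended on sex by limma at an adjusted p under 0.05, and 266 had an unadjusted p under 0.05. The smallest belonged to Ehbp1 (0.17 in females, -0.17 in males), Zfp771 (-0.31 and 0.26), the cytochrome c oxidase assembly gene Cox11 (-0.51 and 0.20) and 9330160F10Rik (-0.26 and 0.47), each with an adjusted p of 1 by limma.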

How the data were processed

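The 48 mice gave 1 library each. The authors deposited a gene and an exon table whose values are a score: read counts normalised and rounded to whole numbers, as the values show, so they are no raw counts. The submitters' processing notes list STAR 2.4.0, edgeR 3.4.2, R 3.0.2, CASAVA and FastQC, with mm9 as the build, without saying what each did. The sources used here do not give how reads with several placements were treated, the strand setting, the annotation or the normalisation. Column totals ran from 13579559 to 14561911 for 37620 genes. The true depth is unknown, so no counting interval was attached.

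Mice were grouped by Gm13340 above 1000. The members and lists were chosen with earlier results of these data known. Genes at 1 ppm of the mean column total in at least 10 High mice, without Gm13339, Gm13340, Gm13341 and Gm11407, were kept (14924). The test was limma 3.58.1, run in R 4.3.3 (mean-variance trend, sex as covariate, 24 High mice) on log2(value + 0.5 ppm), and p-values were adjusted by Benjamini-Hochberg over all 14924. Fold changes on this scale understate weak genes. Exons at 0.1 ppm or more were compared by diffSplice with a pseudocount of 0.05 ppm. Exact tests are named where used. Mitochondrial genes and nuclear genes that share words with them entered the fit and that adjustment, but their p-values are not reported. Since they track the grouping and lower the adjusted p of nuclear genes, counts over nuclear genes alone, added after seeing the data, are given too. Names and sequences came from GENCODE M21, matched for 32897 identifiers. Positions are exon starts of the deposited exon table (mm9), and none was converted. Sequences were compared with both strands, aligned with Biopython, and figures were drawn with matplotlib. The limma tests of the groups, of dependence on sex and of exon usage were also run on simulated data. The simulated exons were not as weak as several of those called, and their fit left out sex.

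Named genes were those called that averaged at least 5 ppm, up to 15 per direction, and, with fewer than 10 called, the 5 not called with the smallest p per direction; the 2 called genes below that mean were named after their values were seen. From each list up to 4 called members, otherwise at most the 2 with the smallest p, could be named. A gene that the rule named is not reported here. Exon usage gave 6 genes and the dependence on sex 4. The stretches around the copies and around Tmed2 were chosen after their values were seen. Alternatives covered pseudocount, filter, scaling, covariates, weights, threshold, sex and each mouse left out.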

Additional observations from a re-analysis of the deposited data

Results flagged for a closer look

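Values of 2 mice stood apart within the 10 that had the signal, by the gap to the nearest other mouse relative to the whole range (55 genes were examined). mt-Tc measured 161 in High female replicate 8, where the next highest of the 10 was 106. mt-Ty measured 12 in High male replicate 2, where the next highest was 6. Chance alone gives such a gap in about 1 in 20 groups.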

How the results depend on the processing

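The count of 4 called nuclear genes became 2 with p adjusted over nuclear genes alone, an alternative chosen after seeing the data. It was 2 with a filter at 5 ppm and 17 with library weights (2359 at an unadjusted p under 0.05). It was 0 in females alone (403 at an unadjusted p under 0.05) and 2 in males alone, which leave fewer mice. With 1 mouse left out it ran from 2 to 7. Pseudocounts, no filter, no covariate, quantile normalisation, rescaling without mitochondrial genes, all 48 mice in 1 fit, marker covariates and thresholds of 500 or 2000 gave 3 to 5. Over nuclear genes alone these settings gave 0 to 2, with 0 without a filter and with all 48 mice. The 20 genes with exon usage calls became 9 with exons at 0.5 ppm and 6 with a pseudocount of 0.2 ppm, and were 28 without the sex covariate. The cause was not tested. Dependence on sex gave 0 calls in each setting run, including 24 fits with 1 mouse left out. A fit of it without a covariate was not run, since the term needs sex. Of the 4 called genes, Tmed2 lost its call in 1 of 41 settings and Gm16477 in 2 of 40. ENSMUSG00000090378 lost it in 9 of 41 and ENSMUSG00000062358 in 13 of 40, and none of the 4 changed direction. These tallies used the adjustment over all genes, except in the setting over nuclear genes alone. With that narrower adjustment, 0 of the 4 were called without a filter, with all 48 mice, in females alone or in males alone. Rescaling moved no mitochondrial difference beyond the spread between mice, and 9 genes still had groups without overlap. No paired analysis was possible because the labels pair no mice. The setting that left out the 2 mice rich in Slc17a7, and the thresholds for the sex split (p = 0.68 in both, Fisher's exact test), were chosen after seeing the data. Unknown depth limits values near 0.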

Other observations

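Below the threshold, the copies varied together in a few mice. Low female replicate 1 had the highest Gm13340 outside the 10, at 901, with Gm13341 at 254 and Gm13339 at 165, against Low medians of 150, 58.5 and 22. In that mouse mt-Ty was 156 and mt-Tg was 2, within the range of the other mice without the signal. High male replicate 1 had Gm13340 at 350, Gm13341 at 97 and Gm13339 at 82, the highest of the 14. Its mt-Ty, at 141, was the lowest of the 14, and its mt-Tg was 2. Its mitochondrial genes together, at 499100, were also the lowest of the 14, and it was rich in Slc17a7 (1626).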
